A study of Homo sapiens with 6 samples.

Results

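The cargo receptors of the early secretory pathway described here are LMAN1, its partner MCFD2, the LMAN1 relatives LMAN1L, LMAN2 and LMAN2L, SURF4, and ERGIC1, ERGIC2 and ERGIC3. These 9 genes, of 18417 measured, were listed by function, and each had exactly 1 probe set annotated to its symbol alone. LMAN1 itself was chosen by its large mutant minus parental decrease in the same arrays, so its values are a description with no test. The other 8 were listed for their function, but earlier results of these data were known when the list was made. The question was whether its partner or relatives follow it.

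Newly made proteins leave the endoplasmic reticulum (ER) in vesicles with a COPII coat, and soluble cargo is caught by transmembrane receptors that cycle between the ER and the Golgi with the help of COPI vesicles. LMAN1, also called ERGIC-53, is a mannose-binding lectin that works with the small calcium-binding protein MCFD2. The pair carries coagulation factors V and VIII, and loss of either partner causes a combined deficiency of both factors. SURF4 carries other secreted proteins, among them lipoproteins, and ERGIC1, ERGIC2 and ERGIC3 are membrane proteins that cycle along the same route.

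Total RNA of HCT116 cells, a human line established from a colorectal carcinoma, was hybridised to Affymetrix arrays that probe whole transcripts. The parental line is represented by 3 arrays, and 3 come from a mutant derivative whose DNA methylation is altered. Both lines were grown in McCoy's 5A medium with serum and antibiotics, and the labels name neither the mutated gene nor how many clones the mutant arrays represent. Values are log2 expression per probe set after RMA normalization. Probe sets bind their targets with different strength, so levels were compared between arrays and not between genes.

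The epithelial markers fixed for the label check were present, with EPCAM at a mean of 12.15 in parental and 12.33 in mutant arrays and KRT8 at 13.32 and 12.79. Of the intestinal markers, CDX2 lay at 8.52 in parental and 8.48 in mutant arrays, whereas CDH17 and VIL1 were dim, at 4.26 and 5.76 in parental and 4.23 and 5.76 in mutant arrays. Of 9 measured epithelial markers 5 were called lower in the mutant and 0 higher, led by CDH1, KRT18 and CLDN7, where limma called 11.3% of all 18417 genes lower and 14.6% higher. The list's mean per array was 10.15 to 10.19 in parental and 9.71 to 9.80 in mutant arrays, and its part in the results below was not tested. Leukocyte, endothelial and hepatocyte markers had 0 of 7, 0 of 6 and 0 of 6 genes called by limma, and fibroblast markers 1 of 9 (PDGFRB, a call lost without any 1 array other than parental replicate 2, at adjusted p-values of 0.0595 to 0.0968). Before adjustment, limma gave a p under 0.05 to 1, 0 and 0 genes of the first 3 lists. Mean levels per array of these lists ran from 5.77 to 5.79, 5.77 to 5.90, 5.07 to 5.14 and 5.47 to 5.53 in parental arrays. In mutant arrays they ran from 5.77 to 5.82, 5.80 to 5.82, 5.01 to 5.10 and 5.41 to 5.50. PTPRC and ALB, defining markers of leukocytes and hepatocytes, lay below 4 in both lines (PTPRC 3.72 and 3.73, ALB 3.94 and 3.88). Other genes of these lists were brighter. The highest group means were 9.33 for leukocyte markers (CD68, mutant) and 7.45 for endothelial markers (CLDN5, mutant). They were 7.31 for hepatocyte markers (APOA1, parental) and 8.30 for fibroblast markers (COL1A1, parental).

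LMAN1 was about 22 times lower in the mutant line. The parental arrays read 11.70, 11.72 and 11.73 and the mutant arrays 7.26, 7.26 and 7.27 (probe set 8023561). The groups were separated by a gap of 4.43 on the log2 scale, while the parental arrays spanned 0.032 and the mutant arrays 0.011. The mean fell from 11.72 ± 0.017 to 7.26 ± 0.0058 (SD, n = 3 each), a difference of -4.46, or 21.9-fold, the 16th largest decrease among 18417 genes. RMA compresses differences between dim values, and no detection calls were used here, so whether 7.26 lies above background is not known. The RNA came from bulk culture, where less LMAN1 RNA per cell and fewer cells with LMAN1 RNA cannot be told apart.

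The sequence before the start site of LMAN1 is shown beside those of MCFD2 and SURF4, because the mutant line is described by its DNA methylation and these genes stand for the member that was much lower, its partner, and the only one of the 8 tested members that was called. Each line is the 250 bases before the annotated start, 5′ to 3′ on the gene's strand, from RefSeq on GRCh38.p14, with CpG dinucleotides in capitals. The windows are chr18:59359266-59359515 (minus strand) for LMAN1, chr2:46916113-46916362 (minus strand) for the most upstream of the 3 starts held for MCFD2, and chr9:133376061-133376310 (minus strand) for SURF4.
LMAN1: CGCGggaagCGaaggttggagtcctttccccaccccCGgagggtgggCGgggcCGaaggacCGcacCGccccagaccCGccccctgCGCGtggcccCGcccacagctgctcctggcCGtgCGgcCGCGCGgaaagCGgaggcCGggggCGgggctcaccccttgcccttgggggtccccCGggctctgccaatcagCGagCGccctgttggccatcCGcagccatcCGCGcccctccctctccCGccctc
MCFD2: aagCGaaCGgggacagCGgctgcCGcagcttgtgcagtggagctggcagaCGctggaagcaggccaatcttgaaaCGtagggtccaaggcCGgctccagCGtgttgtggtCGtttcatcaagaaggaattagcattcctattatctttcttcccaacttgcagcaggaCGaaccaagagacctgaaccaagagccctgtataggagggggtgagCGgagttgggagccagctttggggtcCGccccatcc
SURF4: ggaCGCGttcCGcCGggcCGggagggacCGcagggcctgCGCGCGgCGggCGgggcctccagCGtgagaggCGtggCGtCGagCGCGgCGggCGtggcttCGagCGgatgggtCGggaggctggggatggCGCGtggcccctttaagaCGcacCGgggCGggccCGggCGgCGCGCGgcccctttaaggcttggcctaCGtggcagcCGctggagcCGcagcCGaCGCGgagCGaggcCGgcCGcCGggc

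The LMAN1 window holds 27 CpG dinucleotides, a number reached by 17.7% of 35116 such windows, whose median is 11. SURF4 holds 42, reached by 1.38%. The 3 MCFD2 windows hold 12 (the one shown), 15 and 28 (the most downstream start). LMAN2, LMAN2L, ERGIC2 and ERGIC3 hold 15, 13, 18 and 23. Windows were held for 7 of the 9 members. Methylation of these CpG dinucleotides was not analysed here. The CCAAT box (CCAAT, both strands) occurs in the windows of LMAN1, LMAN2, LMAN2L, MCFD2 and ERGIC3, and in 32.0% of all windows. The ER stress response element (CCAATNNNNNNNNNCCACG, both strands), whose first letters are a CCAAT box, occurs in 0 of the 9 member windows and in 0.074% of all windows. The unfolded protein response element (TGACGTGG, both strands) also occurs in 0 of 9, against 0.612% of all windows. A match is only a match of letters, and forms of these elements with other letters were not counted. In the LMAN1 window CCCTG stands where the ER stress response element has CCACG, so a looser pattern could give another count.

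**Figure D1:**
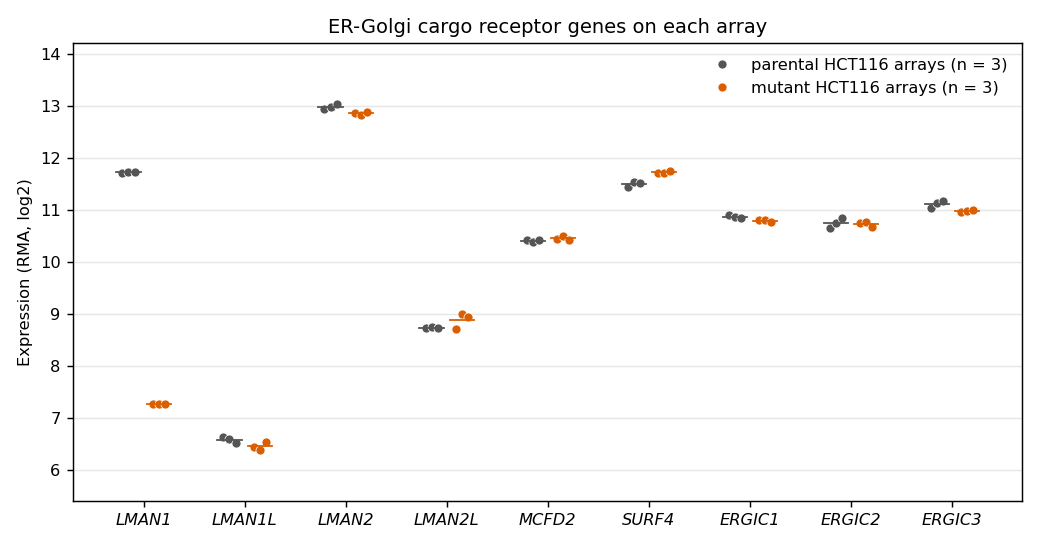
Expression of the 9 cargo receptor genes on each array, as RMA log2 values on the vertical axis. Points are arrays 1 to 3 from left to right, grey for parental and orange for mutant HCT116, and short lines are group means. LMAN1 lies near 11.72 on every parental array and near 7.26 on every mutant array, whereas each other member's points stay within a narrow band.

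The partner showed no decrease like that of LMAN1. MCFD2, the calcium-binding subunit that LMAN1 holds in the cycling complex, read 10.41, 10.37 and 10.42 on the parental arrays and 10.44, 10.50 and 10.41 on the mutant arrays. The groups overlapped, and the mean was slightly higher in the mutant. The difference was 0.05, with a 95% interval from -0.07 to 0.17 (limma adjusted p = 0.607, n = 3 each). As a ratio of mutant to parental the interval runs from 0.951 to 1.12, so a decrease of MCFD2 RNA larger than about 5% lies outside it. Its width reflects variation among these arrays alone, part or all of which may be technical. Leaving out single arrays gave differences of 0.023 (without mutant replicate 2) to 0.067 (without mutant replicate 3). The interval lies far from the 21.9-fold decrease of LMAN1.

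The relatives with a luminal lectin domain of the same type did not pass the test. LMAN2, also called VIP36, a lectin that cycles between the Golgi and earlier compartments, read 12.94, 12.98 and 13.03 in parental and 12.86, 12.83 and 12.88 in mutant arrays. Every mutant array lay below every parental array, by a small margin. The difference of -0.13 (95% interval -0.25 to -0.01) had an unadjusted p of 0.0407 and an adjusted p of 0.145 in limma's test. LMAN2L, or VIPL, an ER-resident lectin, read 8.72, 8.75 and 8.73 in parental and 8.71, 9.0 and 8.93 in mutant arrays. Mutant array 1 lay just below the parental values and the other two lay above them. Its difference was 0.15 (interval -0.05 to 0.35, limma adjusted p = 0.313). It was 0.23 without mutant replicate 1 (adjusted p = 0.0556) and 0.09 without mutant replicate 2 (adjusted p = 0.601). LMAN1L, a further relative, read 6.63, 6.58 and 6.51 against 6.44, 6.38 and 6.53. The groups overlapped, and the difference of -0.12 (interval -0.27 to 0.03) had a limma adjusted p of 0.260. The lowest bound among these 3 relatives is -0.27, that of LMAN1L, and the highest is 0.35, that of LMAN2L.

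SURF4, a multispanning receptor that loads soluble cargo into COPII vesicles, was the only one of the 8 tested members that passed the test, and it was higher in the mutant. It read 11.44, 11.54 and 11.52 in parental and 11.70, 11.71 and 11.75 in mutant arrays. All 3 mutant arrays were higher than all 3 parental ones. The rise was 0.22 on the log2 scale, or 1.16-fold (interval 0.09 to 0.34, limma adjusted p = 0.0313). The call was lost whichever 1 of the 6 arrays was left out: the adjusted p was 0.0742, 0.0945 and 0.0924 without mutant replicates 1, 2 and 3, and 0.0802, 0.0687 and 0.0745 without parental replicates 1, 2 and 3.

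The ERGIC proteins form complexes of the intermediate compartment that cycle with cargo, and none of their 3 genes passed the test. ERGIC3 read 11.04, 11.13 and 11.16 in parental and 10.95, 10.97 and 10.99 in mutant arrays, without overlap. Its difference was -0.14 (interval -0.27 to -0.01), with an unadjusted p of 0.0385 and an adjusted p of 0.140 in limma's test. ERGIC1 read 10.89, 10.86 and 10.84 against 10.80, 10.81 and 10.76, again without overlap but with a difference of only -0.08 (interval -0.19 to 0.04, limma adjusted p = 0.352). ERGIC2 read 10.65, 10.74 and 10.84 against 10.74, 10.77 and 10.66. Its groups overlapped, and its difference of -0.02 (interval -0.18 to 0.15, limma adjusted p = 0.907) took either sign when single arrays were left out.

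Of the 8 members other than LMAN1, limma thus called 1 higher and 0 lower, or 12.5%. Of all 18417 genes, 25.9% were called, 14.6% higher and 11.3% lower, and among the 8631 brighter genes, those averaging at least 8 in log2 units over all arrays, 38.9%. The share among the members lies below both, but 8 genes are few and no difference between these shares was tested. The 0 decreases came with 3 members at an unadjusted limma p under 0.05, of which LMAN2 and ERGIC3 were the lower ones. Both were called with an intensity trend in the variance model, at adjusted p = 0.0289 and 0.0429 (0.0289 to 1.0 and 0.0429 to 1.0 over all their alternatives). Groups did not overlap for 4 of the 8, against 45.8% of all genes. The 8 differences ran from -0.14 to 0.22, with a median of -0.05 against 0.0034 for all genes, and the widest interval bounds were -0.27 and 0.35.

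**Figure D2:**
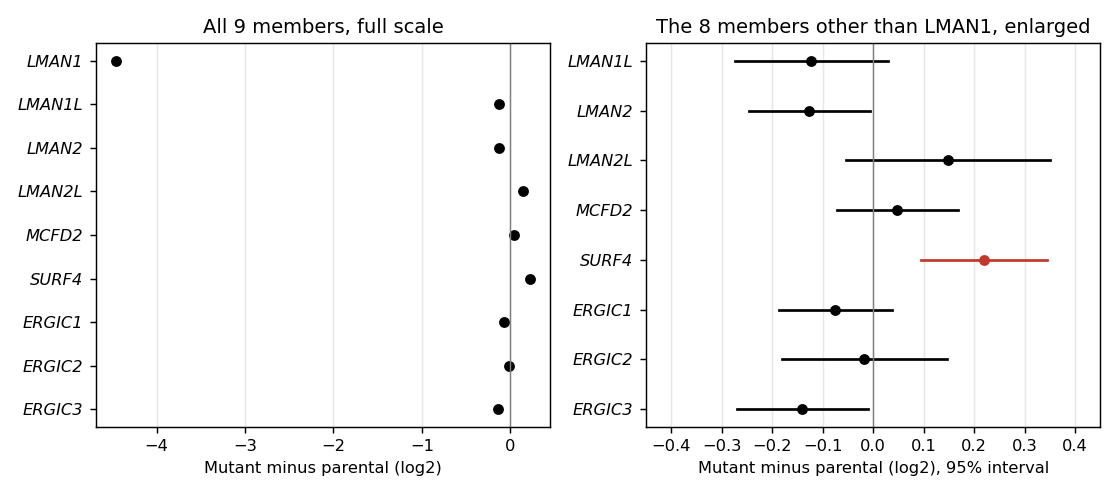
Mutant minus parental difference on the log2 scale for each member, from means of 3 arrays per group. The left panel holds all 9 members at full scale, with LMAN1 at -4.46 and the others close to 0. The right panel enlarges the 8 others with limma's 95% intervals, of which SURF4 (red) is the one with an adjusted p under 0.05.

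The position of LMAN1 was examined through its neighbours, the 10 measured genes on each side along chromosome 18. Of these 20 genes 5 fell and 1 rose, and their median was -0.09. The 25.0% that fell equals the share over all 264 measured genes of that chromosome, and 11.3% of all genes fell. These shares include dim genes. MIR122, CPLX4, MC4R, ALPK2, CDH20, CCBE1, RNF152 and GRP had parental means of 3.23 to 6.06, and none was called. The 5 that fell had parental means of 8.76 to 10.38. ZNF532, RELCH, ZCCHC2 and PHLPP1, at 8.37 to 8.95, were not called. The decreases were NEDD4L (-1.74), a ubiquitin ligase gene, ATP8B1 (-1.64), a phospholipid flippase, PMAIP1 (-1.0), which encodes the cell death protein NOXA, SEC11C (-0.69), a catalytic subunit of signal peptidase in the ER, and MALT1 (-0.62), with limma adjusted p-values from 2.17e-05 to 0.00387. The gene next to LMAN1 on either side had no such change, with CPLX4 at -0.02 (adjusted p = 0.924) and CCBE1 at -0.14 (adjusted p = 0.273), both dim in these cells, at means of 3.86 and 5.78 in parental arrays. TNFRSF11A rose by 0.21 (adjusted p = 0.0211), a call lost whichever array was left out (adjusted p = 0.0552 to 0.0862). No neighbour came near the LMAN1 difference of -4.46. LMAN1 was chosen for that decrease, and only 0.462% of all genes were called lower by at least 4-fold. The gap to its neighbours is therefore no further result.

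SURF4 lies on chromosome 9 among genes that rose with it. Of its 20 nearest measured genes 9 rose and 0 fell, with a median of 0.18 beside its own 0.22. On the whole chromosome 30.9% of 732 genes rose, against 14.6% of all genes. SURF4's neighbours SURF2 (0.47), SURF6 (0.32) and MED22 (0.76) were among the 9, whereas SURF1 (0.17, adjusted p = 0.270) was not called. Whether the shared position has a part in the SURF4 rise was not tested. Around the other members the count of neighbours that rose or fell was 5 and 2 for LMAN1L, 3 and 6 for LMAN2, 5 and 0 for LMAN2L, 2 and 1 for MCFD2, 3 and 1 for ERGIC1, 8 and 0 for ERGIC2, and 1 and 3 for ERGIC3, each of 20. ERGIC2 had a neighbour median of 0.18, although its own difference was -0.02. These counts for members other than LMAN1, and the names of the SURF4 neighbours, were added after the members' values were seen.

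**Figure D3:**
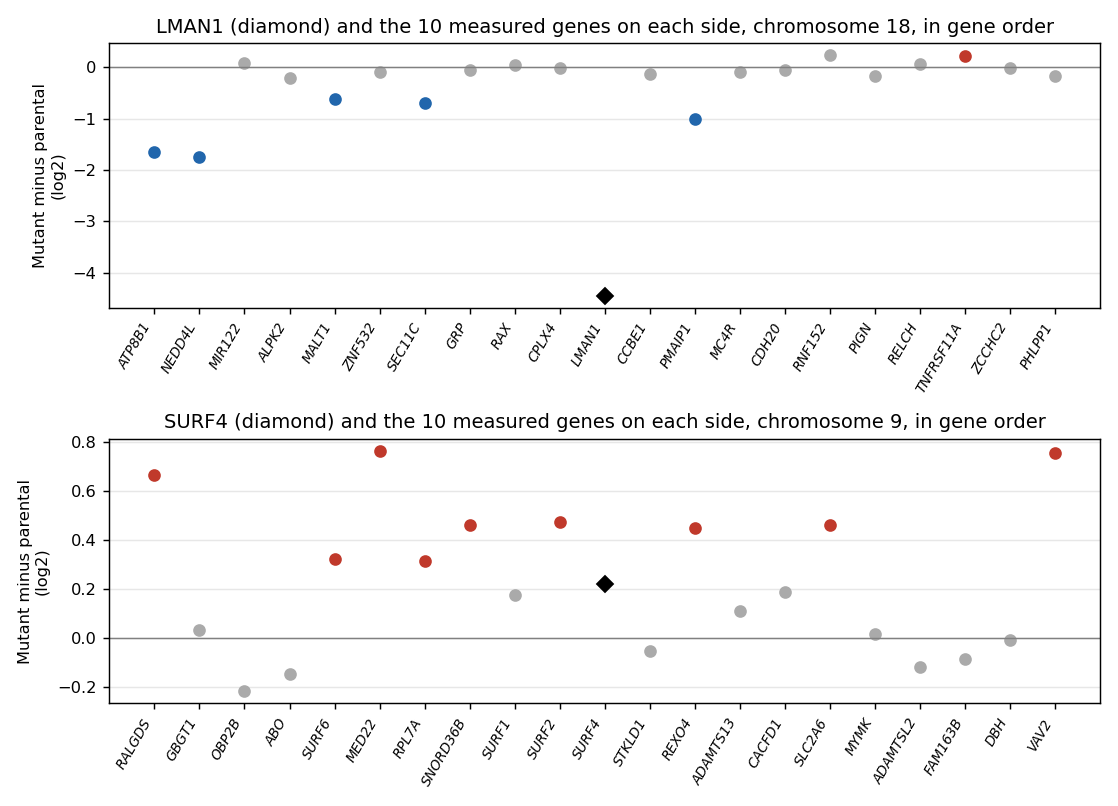
Mutant minus parental difference (log2, vertical axes with different ranges) of LMAN1 and SURF4, drawn as black diamonds, and of the 10 measured genes on each side in chromosome order. Red and blue mark genes higher and lower at a limma adjusted p under 0.05, grey the rest. LMAN1, chosen for its decrease, lies at -4.46, far below neighbours that reach -1.74, while SURF4, at 0.22, lies within the range of its neighbours.

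The rest of the route was read from 8 lists of 152 genes, of which 143 were on a single-symbol probe set; the tether USO1 and TMED7 were among the 9 that were not. Of these 31 rose and 17 fell, with a median of 0.03. The 33.6% called lies between the 25.9% of all genes and the 38.9% of the brighter genes, which makes it no result about the lists as a whole. The largest decreases among them were those of ARFGAP3, MAN1A1 and SEC31A, each from another step.

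In the COPII coat and its exit sites 5 of 19 genes rose and 1 fell, with a median of 0.08. The 31.6% called lies between the 25.9% of all genes and the 38.9% of the brighter genes. The decrease was SEC31A, the main form of the outer coat subunit, which read 11.55, 11.58 and 11.65 in parental and 9.54, 9.64 and 9.60 in mutant arrays. Every mutant array was about 4 times lower, a difference of -2.0 (interval -2.13 to -1.87, limma adjusted p = 1.67e-05). SEC16A, the scaffold of ER exit sites, read 9.02, 8.98 and 9.01 against 9.72, 9.79 and 9.79 and rose by 0.76 (adjusted p = 0.000269); like SURF4 it lies on chromosome 9. The GTPase gene SAR1A, which starts coat assembly, rose by 0.39 and KLHL12, a ubiquitin ligase adaptor that acts on SEC31, by 0.34. The inner coat genes, which bind the export signals of receptors such as LMAN1, were picked out after their values were seen and did not pass: SEC23A gave -0.04, SEC23B 0.08, SEC24A 0.01, SEC24B 0.03, SEC24C 0.24 and SEC24D 0.05, with adjusted p-values from 0.0708 to 0.939.

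Among other receptors, the p24 (TMED) family, which carries GPI-anchored proteins, had 2 of 9 genes higher and 2 lower. That is 44.4% called, beside 25.9% of all genes and 38.9% of the brighter genes, and with so few genes the difference was not tested. TMED8 rose by 0.36 and TMED4 by 0.31, whereas TMED9 fell by 0.34 and TMED10 by 0.17, the last a call lost whichever array was left out (adjusted p = 0.0845 to 0.134) and when array medians were set equal or the arrays quantile-normalized again. Of 18 cornichons, retrieval receptors and other helpers 5 rose and 1 fell (33.3% called, between those 2 background shares). CNIH2, a cornichon and so a relative of yeast ER export receptors, read 8.0, 8.16 and 8.04 in parental and 9.16, 9.11 and 9.16 in mutant arrays. It was higher on every mutant array, by 1.08 or 2.11-fold (interval 0.93 to 1.22, limma adjusted p = 0.000169). Its relative CNIH3, dim in both lines, rose by 0.42 and BCAP29 by 0.31. YIF1B fell by 0.58 on its brighter probe set, while its other probe set gave -0.03 (adjusted p = 0.824).

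The COPI coat and its ARF cycle, which return LMAN1 and the KDEL receptors to the ER, had 4 of 16 genes higher and 3 lower. That is 43.8% called, beside 25.9% of all genes and 38.9% of the brighter genes, a difference that was not tested. ARFGAP3, a GTPase-activating protein that acts on ARF1 at the Golgi, read 8.47, 8.62 and 8.70 in parental and 6.21, 6.60 and 6.23 in mutant arrays. All mutant arrays were far lower, and the mean fell by 2.25 on the log2 scale, or 4.76-fold (interval -2.55 to -1.95, limma adjusted p = 0.000174). The related ARFGAP2 fell by 0.60 and ARF5 by 0.63. The coat subunits ARCN1 and COPB2 each rose by 0.25, and GBF1, the exchange factor of ARF1, by 0.24. The calls of ARCN1 and COPB2 were lost without parental replicate 2 or mutant replicate 2, at adjusted p-values of 0.0526 to 0.058. That of GBF1 was lost without replicate 2 or 3 of either line (0.0506 to 0.0696).

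Of 32 tethers, SNAREs and RAB1 genes 9 rose and 3 fell. The 37.5% called lies between the 25.9% of all genes and the 38.9% of the brighter genes. TRAPPC2 rose by 0.46 and STX18, a SNARE of retrograde fusion at the ER, by 0.42, while GOSR2, a SNARE of ER to Golgi fusion, fell by 0.47. The call of TRAPPC2 was lost without parental replicate 2 (adjusted p = 0.051), and that of GOSR2 without parental replicate 2 or mutant replicate 2 (0.0504 to 0.0552). TRAPPC11 gave 0.29, with a call lost without any 1 array other than parental replicate 3 (0.0677 to 0.126). TRAPPC9 gave -0.25, with a call lost without parental replicate 1 or 2 or mutant replicate 1 (0.0512 to 0.056). GORASP2, a Golgi stacking protein, gave -0.22, with a call lost whichever array was left out (0.0538 to 0.128).

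**Figure D4:**
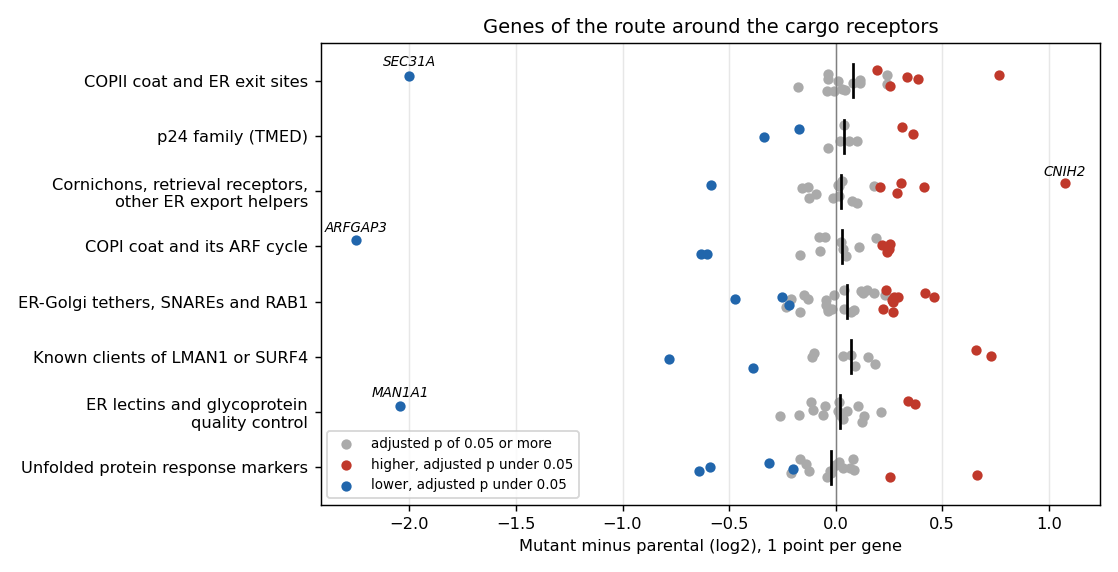
Mutant minus parental difference (log2) of 143 genes in 8 lists of the route, 1 point per gene with vertical scatter for legibility and a black line at each list's median. Red and blue points have a limma adjusted p under 0.05. Medians lie between -0.02 and 0.08, and the named points are the genes that changed by at least 2-fold: SEC31A, ARFGAP3 and MAN1A1 lower and CNIH2 higher.

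Of 11 measured genes for clients of LMAN1 or SURF4, 2 rose, 2 fell and 7 were not called. The 36.4% called lies between the 25.9% of all genes and the 38.9% of the brighter genes, so the count is no result about the clients. F8, coagulation factor VIII, the best known client of the LMAN1 and MCFD2 pair, read 6.55, 6.63 and 6.72 in parental and 7.38, 7.43 and 7.28 in mutant arrays, a rise of 0.73 (interval 0.56 to 0.89, limma adjusted p = 0.00105). F5, picked out after its values were seen, was dim in both lines at 5.79 and 5.69 (adjusted p = 0.279). SERPINA1, alpha-1 antitrypsin, read 6.94, 6.79 and 6.95 against 6.11, 6.10 and 6.12 and fell by 0.78 (adjusted p = 0.000538). The group means of F8 and SERPINA1, from 6.11 to 7.36, lie near or below the 7.26 of LMAN1 in mutant arrays. Whether they lie above background is likewise not known. CTSC, a lysosomal protease reported to use LMAN1, read 10.22, 10.29 and 10.36 against 10.87, 11.00 and 10.98 and rose by 0.66 (adjusted p = 0.00113). SUMF1, which activates sulfatases in the ER, fell by 0.39. These are RNA levels, and secretion of the proteins was not measured.

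In ER lectins and glycoprotein quality control 2 of 18 genes rose and 1 fell. The 16.7% called lies below the 25.9% of all genes and the 38.9% of the brighter genes, a difference that was not tested. MAN1A1, a mannosidase that trims the glycans to which lectins bind, read 10.67, 10.54 and 10.57 in parental and 8.70, 8.51 and 8.45 in mutant arrays. It fell by 2.04 or 4.12-fold (interval -2.24 to -1.85, limma adjusted p = 5.62e-05). MAN1B1, an ER mannosidase gene on chromosome 9, rose by 0.37 and EDEM3, of ER-associated degradation, by 0.34, a call lost without any 1 array other than parental replicate 3 (adjusted p = 0.0568 to 0.0653).

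Unfolded protein response markers were examined because LMAN1 is a known target of that response. Of 20 measured, 2 rose and 4 fell, with a median of -0.02. The 30.0% called lies between the 25.9% of all genes and the 38.9% of the brighter genes. HSPA5, the chaperone BiP, rose by 0.26, a call lost without any 1 array other than parental replicate 3 (adjusted p = 0.0606 to 0.0809), and CREB3L1 rose by 0.66. CREB3L2, a relative of ATF6 that is known to induce secretory pathway genes, read 10.30, 10.32 and 10.37 in parental and 9.74, 9.67 and 9.67 in mutant arrays and fell by 0.64 (interval -0.76 to -0.52, limma adjusted p = 0.000536). ATF4 fell by 0.59 on its brighter probe set, while its other probe set gave -0.37 (limma adjusted p = 0.0192). The disulfide isomerase gene PDIA6 fell by 0.31. XBP1 (-0.17, adjusted p = 0.113) and ATF6 (0.08, adjusted p = 0.329), named after their values were seen because both drive that response, were not called.

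The genes whose pattern over the 6 arrays was most like that of LMAN1 were genes with a decrease of similar size. Likeness was the root mean square difference from LMAN1 after each gene was centred on its parental mean, in log2 units, and is a description over 6 arrays in 2 groups. The 5 nearest were PROM1 (0.217), OR51B2 (0.229), TFPI (0.258), ACSL5 (0.287) and OR51B5 (0.306), with differences of -4.73, -4.49, -4.17, -4.85 and -4.85. IL18 came next at 0.309. None of the 5 lies on chromosome 18, which holds only 264 of the 18417 genes, so that is no result about the chromosome. None is a member or in the lists of the route. The largest decrease among the other members, the LMAN1 neighbours and the lists was -2.25 (ARFGAP3). By this measure none of those genes could come near LMAN1, so their absence is no further result. PROM1 is a membrane glycoprotein, TFPI an inhibitor of coagulation, ACSL5 an acyl-CoA synthetase, and the OR51B genes encode olfactory receptors. TFPI read 8.62, 8.37 and 8.44 in parental and 4.32, 4.06 and 4.54 in mutant arrays, so that its arrays scattered more widely within each group than those of LMAN1.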

How the data were processed

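Each array has 1 log2 value per probe set, deposited by the authors. The submitters' processing notes name RMA and Partek, with no version. No source used here gives the genome build. RMA equalises the arrays' distributions and compresses differences of dim probe sets. The number of arrays limits the precision.

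Of 33297 probe sets, 19460 have 1 gene symbol in the platform annotation, 1754 several and 12083 none. A gene with several single-symbol probe sets was represented by the brightest, which gave 18417 genes. Gene order came from RefSeq GRCh38.p14, matched by gene ID.

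All probe sets were fitted with limma 3.58.1 (lmFit, eBayes, two-sided) in R 4.3.3, with no covariate, 4 residual and 2.16 prior degrees of freedom. P-values were adjusted by Benjamini-Hochberg over all 33297 probe sets, and under 0.05 was called. On simulated data of that size, 70% of 1.5-fold, 94% of 2-fold and 96% of 4-fold changes were recovered. Only 200 probe sets, all with a mean above 6, were changed there, whereas 25.9% of genes were called in the data. Folds as small as those of the 8 tested members were not simulated, so these shares do not cover them. Python 3.11.15 served for summaries and figures.

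Members and lists were chosen with earlier results of these data known. Named genes are all members, up to 3 called genes per list and direction, the 10 measured genes on each side of LMAN1 and the 5 genes most like it; others are said to be picked after their values were seen. The brighter-gene background was also chosen after values were seen. Alternatives covered normalization, dim probe sets, variance models, weights, the replicate block, a minimum fold and each array left out. Replicate numbers do not pair arrays: same-numbered arrays' deviations correlated at -0.0135 to 0.0428. The labels do not describe the 3 arrays of a line as separate cultures, so the p-values reflect variation among these samples alone, and part or all of it may be technical.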

Additional observations from a re-analysis of the deposited data

How the results depend on the processing

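The LMAN1 difference ran from -4.46 to -4.45 over all alternatives. The 7 members not called kept that status in all alternatives, except LMAN2 (-0.13) and ERGIC3 (-0.14), which an intensity trend in the variance model called, for 3 called members in place of 1. SURF4 stayed higher (0.22) but was not called when the test required a fold of 1.2 (adjusted p = 1.0), with the replicate number as a block (adjusted p = 0.0782) or without any single array (0.19 to 0.24), and each of these left 0 called members. Its adjusted p ran from 0.00378 to 1.0 over 16 alternatives and the call held in 8. The called genes of the route numbered 48. A minimum fold of 1.2, stricter by construction, gave 12, the replicate block gave 30, and leaving out single arrays gave 27 to 38, with 27 without mutant replicate 2 or parental replicate 2 and 31 without mutant replicate 3. Other settings gave 41 to 68. Called neighbours of LMAN1 numbered 5 to 7 against 6. Of 46 genes named by list or as called neighbours, 20 kept their call in every alternative they entered, 33 kept it whichever array was left out, and 0 reversed. The block is no better design here, since the replicate numbers do not pair the arrays. Background correction could not be varied from normalized values.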
